A study of Mus musculus with 8 samples.

Results

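Otic patterning transcription factors and cofactors were followed in RNA from the organ of Corti of newborn mice (postnatal day 0), the part of the cochlea that holds the auditory hair cells. The group holds 35 genes, listed by name for their roles in prosensory, lateral, vestibular or non-sensory parts of the inner ear, of 41079 genes counted. All 35 were found by symbol. Of these, 30 passed the low-count filter and were tested. Pax8, Dlx6, Gbx2, Msx1 and Msx2 did not pass and are described by their counts. The study set 4 libraries labelled Prox1 knock-out, with Emx2-cre and a floxed Prox1 gene, against 4 libraries labelled wildtype, and asks what loss of the transcription factor Prox1 does to patterning, innervation and differentiation of this epithelium. The labels do not give the alleles carried by the wildtype mice, the strain, or whether a library is 1 animal or a pool, and p-values therefore describe only how these libraries spread, which may be technical. Emx2-cre acts where and when the Emx2 locus is active and not in every cell of the dissected tissue.

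The inner ear grows from a placode that closes into a vesicle, and transcription factors then divide the vesicle into sensory, neural and non-sensory territories. Pax2 and Eya1 act early, Pax2 as a DNA-binding factor and Eya1 as a coactivator. Sox2 marks the prosensory cells that give hair cells and supporting cells, HMX and DLX homeodomain proteins shape dorsal, vestibular structures, and Otx and T-box genes take part in lateral and non-sensory walls. Many of these genes are still expressed at birth, each in its own cells of the cochlear duct and the tissue around it.

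The libraries held between 29908965 and 32613549 counts in the libraries labelled knockout and between 32863533 and 42318233 in wildtype. Prox1 itself went against the label, at 133.5 to 147 CPM (counts scaled to library size with TMM factors) in the libraries labelled knockout and 106 to 115 CPM in wildtype, with no overlap. On the log2 scale the difference was 0.33 ± 0.05 (SE), and edgeR gave an adjusted p of 0.0298 (quasi-likelihood, Benjamini-Hochberg). It lay between 0.28 and 0.34 in 17 other fits, 7 of which passed. Leaving out any 1 library except library 4 labelled knockout ended the call, with adjusted p between 0.0599 and 0.180 by edgeR. A count over the whole gene says nothing of the floxed stretch alone, and directions below hold for the libraries as labelled. Defining markers of the labelled tissue were present: all 10 hair cell markers and all 10 supporting cell markers passed the filter, with none at 0. The hair cell sums lay between 534 and 601 CPM in the libraries labelled knockout and between 533 and 648 CPM in wildtype. For supporting cells they lay between 2990 and 3428 CPM in the libraries labelled knockout, against 3177 and 3528 CPM in wildtype. Tissue beside the sensory epithelium was present too. The 10 markers of stria vascularis and melanocytes had sums between 69.2 and 82.3 CPM in the libraries labelled knockout and between 84.7 and 148 CPM in wildtype, with wildtype libraries 1 and 3 the highest at 148 and 116 CPM. The 10 markers of periotic mesenchyme and fibrocytes had sums between 5185 and 6236 CPM in the libraries labelled knockout and between 6272 and 7449 CPM in wildtype. Neither pair of ranges of these sums overlaps. The ranges of the mean log2 CPM over the same markers overlap for both lists. The periotic sum rests most on Col1a2, which averaged 2222 CPM in the libraries labelled knockout and 2699 CPM in wildtype. Of the 10 periotic markers, 8 had a log2 fold change below 0 and 2 above, with a median of -0.11. For 2 of them, Col1a1 and Col1a2, the unadjusted p was under 0.05 by edgeR, and neither passed after adjustment. In the authors' deposited DESeq2 table Col1a1 passed (adjusted p = 0.041) and Col1a2 did not (0.128). Of 6 endothelial markers, 5 had a log2 fold change below 0 and 1 above, with a median of -0.16. Of 6 red cell markers, 6 were below 0, with a median of -0.46. The unadjusted p by edgeR was under 0.05 for 4 endothelial and 3 red cell markers, and none passed after adjustment. The sums of these 2 lists overlap between the groups. The part of all these tissues in the values below was not tested.

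No otic patterning gene was called between the groups by edgeR, while DESeq2 called Hmx3, both in the authors' deposited table and in a rerun on the same counts. By edgeR's quasi-likelihood test, adjusted over all genes at a threshold of 0.05, 0 of 30 members were higher and 0 lower, where 0.034% of all tested genes were called higher and 0.0583% lower (19 genes, 0.0923%). An unadjusted p under 0.05 was found for 6 members, which is 20% of those tested against 7.55% of all tested genes. Eya4, Dach1 and Isl1 lay on the higher side, where 4.76% of all tested genes had such a p, and Hmx3, Tbx3 and Dlx5 on the lower side, where 2.78% had. limma-voom called 0 members in either direction, and DESeq2 called 0 higher and 1 lower, Hmx3. The median log2 fold change of the tested members was -0.00 and that of all tested genes 0.00. The members' median size of change, regardless of sign, was 0.05 on the log2 scale. It was 0.09 over all tested genes and 0.08 over those at 1 CPM or more.

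**Figure D1:**
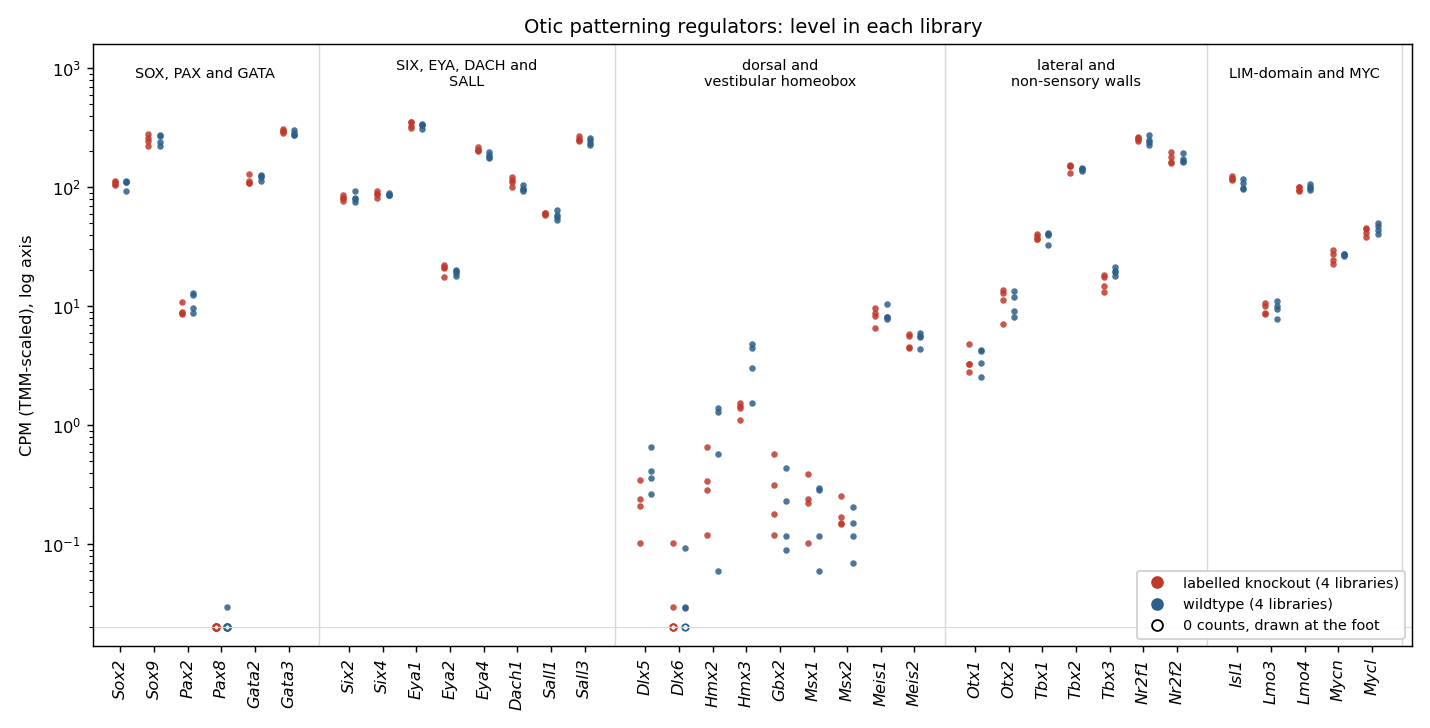
Level of each of the 35 genes in each library, in CPM on a log axis, with libraries labelled knockout in red at the left of each gene and wildtype in blue at the right. For 20 genes a group mean reaches 20 CPM, and in these the points of both groups lie close together, while 7 of the 9 dorsal and vestibular homeobox genes lie low on the axis and spread most. Open points at the foot stand for 0 counts.

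The starts of Hmx3, Isl1 and Dach1, which are among the 6 members with an unadjusted p under 0.05, and of Hmx2, the neighbour of Hmx3 on chromosome 7, are shown because the comparisons below turn on these genes. Each sequence runs from 250 bases before to 50 bases after a transcription start in RefSeq (build GRCm38.p6), read along the gene. The build is older than the GRCm39 build of the deposited counts, and no count was taken from these positions. Capitals mark matches, on either strand, to 8 short motifs bound by factor families among the members. The motif searched for the GATA proteins was AGATAA. The one searched for the SOX proteins was AACAAT. For the OTX proteins the search used TAATCC. For the T-box proteins the search used AGGTGTG. The MEIS proteins were searched with TGACAG. The nuclear receptors of the NR2F type were searched with AGGTCA. Homeodomain proteins in general were searched with TAATTA. The MYC proteins were searched with CACGTG. None of these motifs overlaps another in the sequences shown.
Hmx3, chr7:131542713-131543012, plus strand: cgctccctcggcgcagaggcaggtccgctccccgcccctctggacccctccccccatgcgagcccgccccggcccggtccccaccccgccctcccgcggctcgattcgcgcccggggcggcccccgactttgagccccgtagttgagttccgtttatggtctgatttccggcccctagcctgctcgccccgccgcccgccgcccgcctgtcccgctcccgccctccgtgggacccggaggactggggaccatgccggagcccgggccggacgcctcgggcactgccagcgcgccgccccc
Hmx2 first start, chr7:131548507-131548806, plus strand: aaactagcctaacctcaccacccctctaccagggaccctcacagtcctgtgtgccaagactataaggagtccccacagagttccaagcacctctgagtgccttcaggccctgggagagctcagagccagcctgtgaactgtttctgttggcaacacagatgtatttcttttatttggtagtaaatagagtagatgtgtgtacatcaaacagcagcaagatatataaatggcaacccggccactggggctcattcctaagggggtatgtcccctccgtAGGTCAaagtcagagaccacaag
Hmx2 second start, chr7:131554043-131554342, plus strand: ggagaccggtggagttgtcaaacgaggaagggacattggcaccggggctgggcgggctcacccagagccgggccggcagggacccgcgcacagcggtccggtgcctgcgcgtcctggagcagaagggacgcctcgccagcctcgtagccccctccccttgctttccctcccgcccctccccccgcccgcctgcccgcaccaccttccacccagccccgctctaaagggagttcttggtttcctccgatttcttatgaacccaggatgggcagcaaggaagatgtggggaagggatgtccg
Isl1, chr13:116309639-116309938, minus strand: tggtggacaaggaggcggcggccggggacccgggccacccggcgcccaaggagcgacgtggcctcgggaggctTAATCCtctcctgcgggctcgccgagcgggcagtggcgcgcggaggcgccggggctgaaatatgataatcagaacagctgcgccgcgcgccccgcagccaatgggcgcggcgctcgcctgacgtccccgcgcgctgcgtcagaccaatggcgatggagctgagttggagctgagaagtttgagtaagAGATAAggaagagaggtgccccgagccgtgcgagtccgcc
Dach1, chr14:98169716-98170015, minus strand: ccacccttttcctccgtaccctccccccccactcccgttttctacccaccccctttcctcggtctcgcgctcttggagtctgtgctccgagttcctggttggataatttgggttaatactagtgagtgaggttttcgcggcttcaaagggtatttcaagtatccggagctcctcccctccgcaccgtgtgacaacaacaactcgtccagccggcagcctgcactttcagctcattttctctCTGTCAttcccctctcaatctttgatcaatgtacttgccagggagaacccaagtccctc
The Hmx3 sequence is 78.0% G and C and the second Hmx2 start 67.7%, where the median over 32817 RefSeq starts was 52.7%, and neither holds any of the 8 motifs. The first Hmx2 start, at 50% G and C, holds 1 NR2F match, a motif found in 16.3% of all starts. Isl1 holds 1 GATA match (11.2% of all starts) and 1 OTX match (7.06%). Dach1 holds 1 MEIS match (19.2%), which reads CTGTCA along the gene since it lies on the opposite strand. A start was listed for 26 of the 35 genes, and a match is only a run of letters in this window.

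The early regulators of the SOX and GATA families were abundant and close to equal between the groups. Gata3, a zinc-finger factor needed for the cochlear sensory epithelium and its neurons, had 296, 284, 309 and 299.9 CPM in the libraries labelled knockout 1 to 4 and 276, 288, 302 and 277 CPM in wildtype 1 to 4. The groups overlap, with means of 297 ± 10.4 and 286 ± 12.1 CPM (SD, n = 4 per group) and a log2 fold change of 0.06 ± 0.05 (SE). Sox2, the prosensory and supporting cell factor, averaged 108 ± 3.75 CPM in the libraries labelled knockout and 107 ± 9.19 CPM in wildtype, and wildtype library 1 was the lowest of the 8 at 93.1 CPM. Sox9, an early placode factor that supporting cells and cartilage also use, averaged 252 ± 23.4 and 252 ± 24.7 CPM in the libraries labelled knockout and in wildtype. Gata2, which acts in vestibular morphogenesis and in blood and vessel cells, averaged 115 ± 10.003 and 122 ± 6.65 CPM in the libraries labelled knockout and in wildtype. With 95% intervals of the log2 fold change from -0.12 to 0.15 for Sox2, -0.18 to 0.18 for Sox9, -0.23 to 0.06 for Gata2 and -0.06 to 0.17 for Gata3, a change of 2-fold lies outside the interval of each.

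Pax2, which marks the otic placode and is needed for the cochlea to form, was low and uneven. It had 8.99, 8.56, 10.9 and 8.73 CPM in the libraries labelled knockout and 12.9, 9.58, 12.5 and 8.78 CPM in wildtype 1 to 4. Wildtype libraries 1 and 3 were the highest and the groups overlap. The log2 fold change was -0.23 ± 0.14 (SE, adjusted p = 0.667 by edgeR). Without wildtype libraries 1 and 3, its 2 highest, it was 0.02 ± 0.13. Its partner Pax8, which acts in the early placode, had 0 counts in the 4 libraries labelled knockout and 1 count in all of wildtype (a count of 0 allows up to 3 counts per library).

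Of the Six2, Six4, Eya, Dach and Sall genes, 7 of 8 had a log2 fold change above 0, where 50% of all tested genes had, and the median was 0.05. None of the 8 passed by edgeR, and 2 had an unadjusted p under 0.05. Eya4, a coactivator whose human gene is a deafness gene, was the single member whose groups did not overlap, with the libraries labelled knockout above, which held for 2.07% of all tested genes (3.69% did not overlap in either direction). It had 201, 207, 217 and 206 CPM in the libraries labelled knockout and 176, 198, 178 and 186 CPM in wildtype. Each library labelled knockout lay above each wildtype library, by a small margin between library 1 labelled knockout and wildtype library 2. The log2 fold change was 0.17 ± 0.05 (SE), and edgeR (quasi-likelihood, Benjamini-Hochberg) gave an unadjusted p of 0.0062 and an adjusted p of 0.559.

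Dach1, a nuclear cofactor of transcription that acts in one network with Eya proteins, had 111, 101, 115 and 121 CPM in the libraries labelled knockout and 92.6, 96.3, 104 and 96.8 CPM in wildtype. Library 2 labelled knockout lay below wildtype library 3, and otherwise the libraries labelled knockout were the higher ones. The log2 fold change of Dach1 was 0.20 ± 0.06 (SE, adjusted p = 0.562 by edgeR). In the fits listed in the closing section the log2 fold change of Dach1 lay between 0.16 and 0.25 and that of Eya4 between 0.11 and 0.21, and neither passed in any of the 17.

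Eya1, the coactivator whose loss stops the otic vesicle from developing, was the most counted member. It had 330.1, 353, 352 and 317 CPM in the libraries labelled knockout and 311, 338, 332 and 335 CPM in wildtype, with overlapping ranges (log2 fold change 0.04 ± 0.05, SE). Eya2, another coactivator of the family, averaged 20.5 ± 1.93 CPM in the libraries labelled knockout and 19.2 ± 1.03 CPM in wildtype. Six2 and Six4, homeodomain partners of the Eya proteins, averaged 81.3 ± 3.51 and 87.3 ± 4.50 CPM in the libraries labelled knockout, against 82.3 ± 7.76 and 86.6 ± 1.62 CPM in wildtype. Sall1 and Sall3, zinc-finger genes of which human SALL1 mutations cause ear malformation, averaged 59.8 ± 1.09 and 255 ± 10.3 CPM in the libraries labelled knockout, against 58.1 ± 4.84 and 244 ± 15.0 CPM in wildtype (SD, n = 4 per group throughout). The widest 95% interval among these 6 genes, that of Eya2, ran from -0.08 to 0.27.

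**Figure D2:**
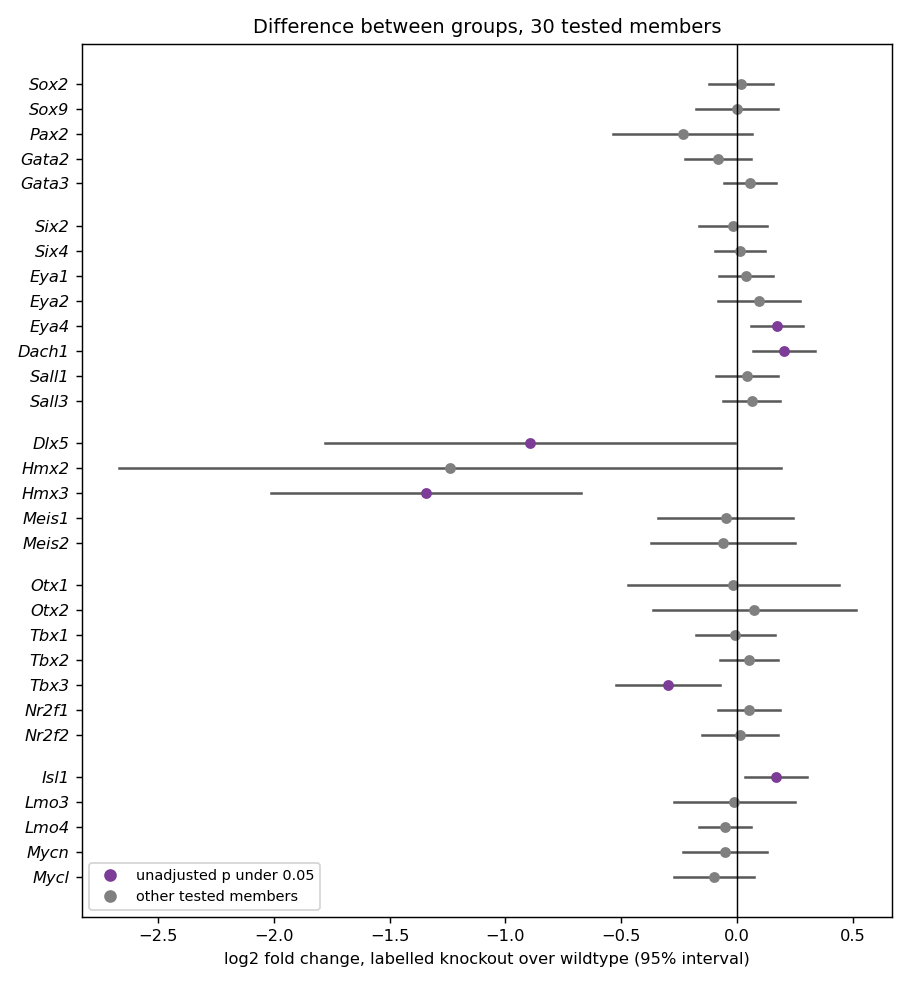
Log2 fold change of each tested gene, libraries labelled knockout over wildtype, with its 95% interval from edgeR's fit. Genes at an unadjusted p under 0.05 are in purple. Hmx3 at -1.34, Hmx2 at -1.24 and Dlx5 at -0.90 lie far to the left of the other genes and have the widest intervals.

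The dorsal and vestibular homeobox genes were the only role group with members beyond 0.5 on the log2 scale, and those members were thinly counted. All 5 tested genes of the group had a log2 fold change below 0, where 50% of all tested genes had. Meis1 and Meis2 were near 0, at -0.05 and -0.06. Dlx5 and Hmx2 reached the filter's minimum count of 10 in more wildtype libraries than libraries labelled knockout. For the untested genes of the group, all with few counts, the authors' deposited table gives 0.41 for Gbx2, 0.30 for Msx1, 0.41 for Msx2 and -0.26 for Dlx6. Hmx3, a homeodomain factor needed for vestibular structures in the mouse, had 1.46, 1.397, 1.53 and 1.10 CPM in the libraries labelled knockout and 4.86, 3.04, 4.48 and 1.52 CPM in wildtype, from 43, 47, 51 and 35 counts and 188, 132, 153 and 51 counts. Wildtype libraries 1 to 3 lay above every library labelled knockout, and wildtype library 4 lay among them. Hmx3 averaged 1.37 ± 0.19 CPM in the libraries labelled knockout and 3.48 ± 1.52 CPM in wildtype (SD, n = 4 per group). The log2 fold change was -1.34 ± 0.31 (SE, 95% interval -2.01 to -0.67, adjusted p = 0.324 by edgeR).

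Hmx3 passed with DESeq2, and with edgeR once wildtype library 4 was left out. The authors' deposited table gives it a log2 fold change of -1.35 with an adjusted p of 0.0046, the single member among 29 with an adjusted p there to pass (0.45% of all genes with one passed). A rerun of DESeq2, the same method on the same counts and so not a separate result, gave -1.34 and an adjusted p of 0.00787. Without wildtype library 4, edgeR gave -1.59 ± 0.21 (SE, adjusted p = 0.0158). That library held the lowest Hmx3 value of wildtype, so leaving it out had to widen the difference. Over 17 other fits, run with edgeR, limma-voom or DESeq2, the adjusted p of Hmx3 ran between 0.00787 and 0.9999, and 2 passed.

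Hmx2, next to Hmx3 in the genome and partly redundant with it in the mouse, had 0.34, 0.12, 0.66 and 0.28 CPM in the libraries labelled knockout and 1.397, 0.58, 1.29 and 0.06 CPM in wildtype, from 10, 4, 22 and 9 counts and 54, 25, 44 and 2 counts. Wildtype library 4 was the lowest of the 8 and wildtype libraries 1 and 3 the highest. Its log2 fold change was -1.24 ± 0.66 (SE, adjusted p = 0.647 by edgeR), and it is given in full because of its position, a choice made after its values were seen.

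Some markers of stria vascularis and melanocytes had the same order of wildtype libraries as these genes, and others did not. Of the 8 such markers tested, 6 had an unadjusted p under 0.05 with adjusted p of at least 0.139 by edgeR. Of the same 8, 7 had a log2 fold change below 0 and 1 above, with a median of -1.30. The authors' deposited DESeq2 table, which called Hmx3, also called Pmel (adjusted p = 0.0051) and Kcne1 (0.0097) and none of the other tested markers of this list. Kcne1, a potassium channel subunit of marginal cells, had 1.90, 0.95, 0.93 and 0.85 CPM in the libraries labelled knockout and 13.9, 4.53, 8.52 and 1.94 CPM in wildtype. Dct, a melanin enzyme gene of melanocytes, had 3.29, 2.62, 2.87 and 2.77 CPM in the libraries labelled knockout, against 17.2, 7.04, 8.96 and 2.84 CPM in wildtype. The order of the wildtype libraries, with 1 highest and then 3, 2 and 4, was the same for Hmx3, Hmx2, Pax2, Mycl and Mycn. It was also that of 5 of the 10 markers, Kcne1, Dct, Esrrb, Pmel and Tyr. The order was another for Kcnq1, Tyrp1, Mlana, Mitf and Kcnj10. Outside the list, Coch, a fibrocyte marker, and the otic regulator genes Tbx18 and Zic1 had the same order too. So did the sum of the 10 periotic mesenchyme and fibrocyte markers and that of the 6 macrophage markers. Over all tested genes, wildtype libraries 1 and 3 were the closest wildtype pair (chi-square per degree of freedom 10.7) and 2 and 4 the next (11.7). The share of all genes with this order was not counted. Kcnj10, a potassium channel gene, had 33.1, 44.2, 34.2 and 46.5 CPM in the libraries labelled knockout and 37.8, 48.1, 39.4 and 47.3 CPM in wildtype, with wildtype library 1 the lowest of its group. Among the libraries labelled knockout, Hmx2 and Hmx3 were highest in library 3. Kcne1, Dct, Esrrb and Tyr were highest in library 1, and Pmel, Kcnq1 and Kcnj10 in library 4. No marker of the list was at 0 in all libraries. Mlana, at 0 in library 4 labelled knockout, and Tyrp1, at 0 in wildtype library 4, were below the filter.

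Fits without 2 libraries or with a marker score gave other values. Wildtype libraries 1 and 3 hold the highest Hmx3 and Hmx2 values of the 8, so leaving them out had to bring the groups closer. Without them the log2 fold change of Hmx3 was -0.75 ± 0.28 (SE) and that of Hmx2 0.06 ± 0.72. With the mean log2 CPM of the stria and melanocyte markers as a covariate they were -0.22 ± 0.28 and 1.34 ± 0.87. That score lay between 1.66 and 1.93 in the libraries labelled knockout and between 1.79 and 3.15 in wildtype. None of these passed (adjusted p = 0.9999 without the libraries and 0.9995 with the covariate, by edgeR). Neither fit separates these tissues from the genotype. In bulk tissue, fewer cells of a type and less RNA per cell cannot be told apart.

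**Figure D3:**
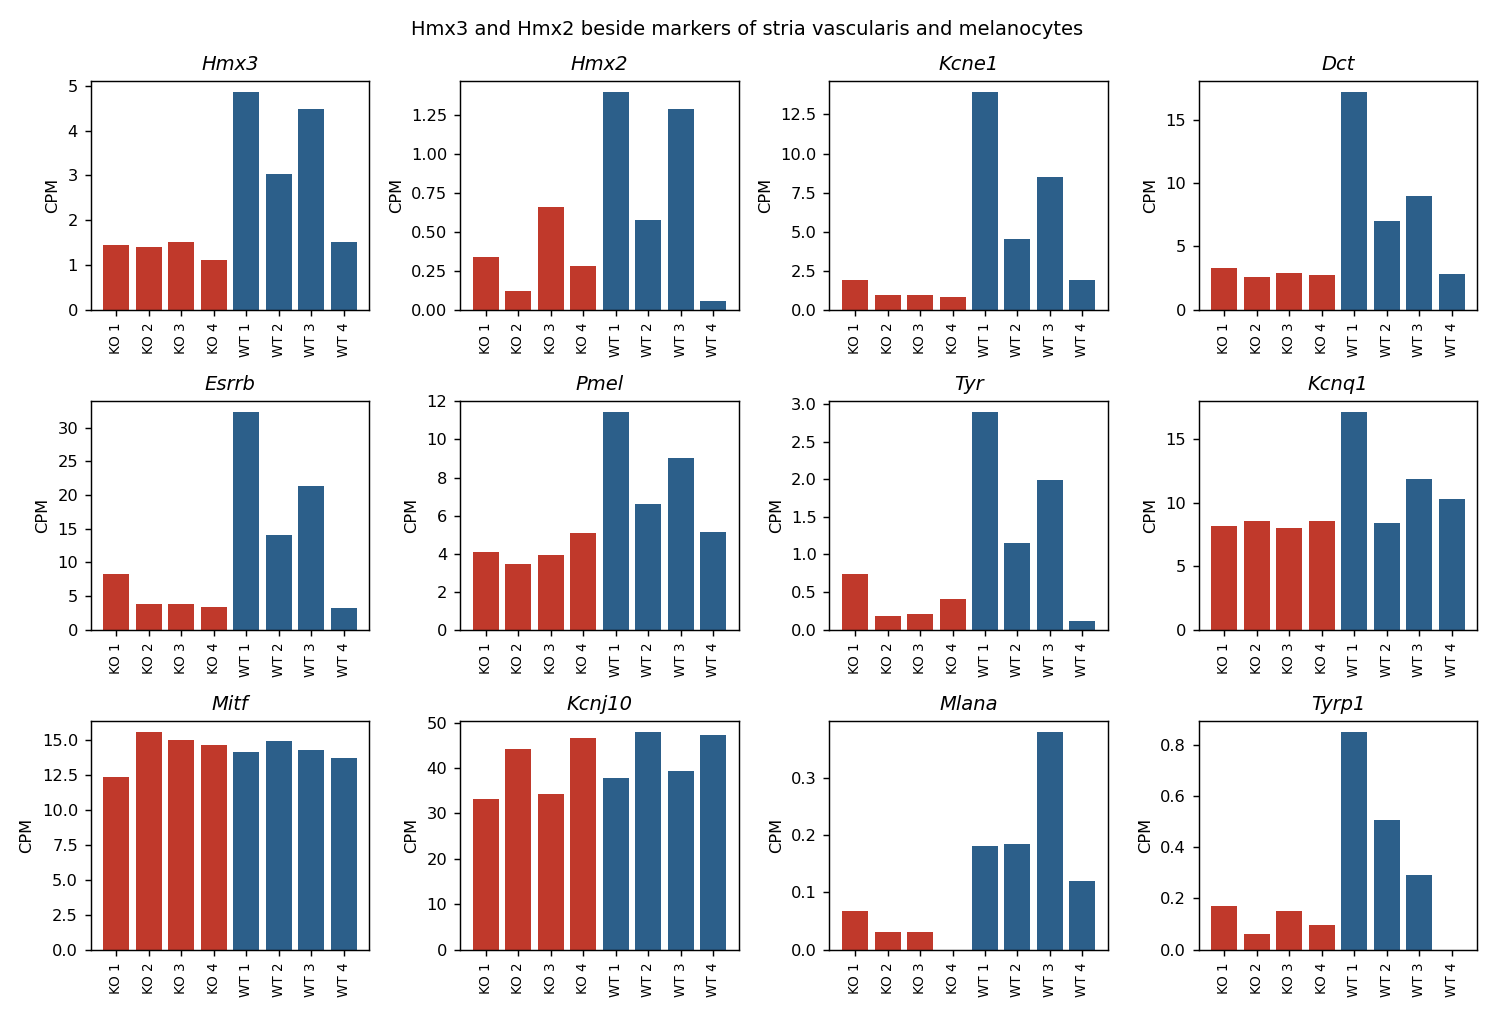
CPM of Hmx3 and Hmx2 and of the 10 markers of stria vascularis and melanocytes in each library, labelled knockout in red (KO) and wildtype in blue (WT), each panel with its own axis from 0. Wildtype library 1 is the highest and wildtype library 3 the next for Hmx3, Hmx2, Kcne1, Dct, Esrrb, Pmel, Tyr and Kcnq1, and not for Mitf, Kcnj10, Mlana and Tyrp1.

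Dlx5, a homeobox gene needed for the vestibular part of the ear, had 3, 8, 7 and 11 counts in the libraries labelled knockout and 14, 18, 9 and 22 counts in wildtype. That is 0.10, 0.24, 0.21 and 0.35 CPM against 0.36, 0.41, 0.26 and 0.66 CPM, and library 4 labelled knockout lay above wildtype library 3. Its log2 fold change of -0.90 ± 0.41 (SE, adjusted p = 0.647 by edgeR) rests on few counts. Its neighbour Dlx6 had 3, 1, 0 and 0 counts in the libraries labelled knockout and 0, 4, 1 and 1 in wildtype. Gbx2, Msx1 and Msx2, homeobox genes of the early dorsal vesicle, had between 3 and 17 counts in each library labelled knockout and between 2 and 17 counts in each wildtype library.

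The MEIS genes, homeodomain partners of PBX and HOX proteins, had the narrowest intervals of this role group. Meis1 had 6.61, 8.32, 9.60 and 8.77 CPM in the libraries labelled knockout and 8.07, 8.19, 10.4 and 7.83 CPM in wildtype, with overlapping groups (log2 fold change -0.05 ± 0.13, SE). Meis2 averaged 5.15 ± 0.71 and 5.37 ± 0.69 CPM in the libraries labelled knockout and in wildtype (SD, n = 4 per group).

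Among genes of lateral and non-sensory walls, Tbx3 had the smallest unadjusted p, 0.0137 by edgeR's quasi-likelihood test. Tbx3, a T-box repressor, had 13.3, 14.9, 18.2 and 17.5 CPM in the libraries labelled knockout and 19.8, 17.98, 21.5 and 19.4 CPM in wildtype. Library 3 labelled knockout lay above wildtype library 2, and libraries 1 and 2 labelled knockout lay below the other 6. The log2 fold change was -0.30 ± 0.10 (SE, adjusted p = 0.599 by edgeR). Its exons overlap those of Tbx3os1 on the opposite strand in GENCODE M21, and with the strand setting of the counting not given, reads of the pair cannot be told apart. Tbx3os1 held 510 counts over the 8 libraries and Tbx3 4989.

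Nr2f1, a nuclear receptor (COUP-TFI) that acts in cochlear duct growth, had 261, 243, 257 and 266 CPM in the libraries labelled knockout and 241, 228, 275 and 248 CPM in wildtype, with wildtype libraries holding both the lowest and the highest value. Nr2f2, the other COUP-TF gene, averaged 176 ± 17.5 and 175 ± 14.1 CPM in the libraries labelled knockout and in wildtype. Both overlap a non-coding gene on the opposite strand, A830082K12Rik with 5014 counts in all and B130024G19Rik with 1776. Tbx1, whose human homologue is deleted in DiGeorge syndrome and which acts in otic and periotic tissue, averaged 38.3 ± 1.79 and 38.5 ± 4.13 CPM, and Tbx2, a close relative of Tbx3 that in the mouse keeps inner hair cells from becoming outer hair cells, 147 ± 10.5 and 142 ± 4.36 CPM, in the libraries labelled knockout and in wildtype (SD, n = 4 per group).

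Otx1 and Otx2, homeobox genes of the lateral canal and of the non-sensory cochlear roof, varied widely within each group and little between the groups. Otx2 had 7.12, 11.2, 13.6 and 13.0 CPM in the libraries labelled knockout and 9.18, 8.08, 13.5 and 12.0 CPM in wildtype. Otx1 had 2.78, 3.24, 4.85 and 3.28 CPM in the libraries labelled knockout, against 3.36, 2.53, 4.27 and 4.21 CPM in wildtype. The log2 fold changes were 0.08 ± 0.20 and -0.02 ± 0.21 (SE). Oc90, the otoconin gene of non-sensory roof epithelium, was at 904, 1153, 1476 and 1623 CPM in the libraries labelled knockout and 1264, 1028, 1708 and 1526 CPM in wildtype. The same 4 libraries, 3 and 4 of each group, held the most Otx2 and the most Oc90, and library 1 labelled knockout and wildtype library 2 held the least of both. Slc26a4, the pendrin gene of outer sulcus cells, did not follow, at 3.26, 3.12, 3.92 and 5.14 CPM in the libraries labelled knockout and 6.60, 5.27, 3.42 and 3.67 CPM in wildtype. Its highest values were in wildtype libraries 1 and 2, where Otx2 was lowest in wildtype. The 3 tested roof and outer sulcus markers had log2 fold changes below 0 with adjusted p between 0.709 and 0.883 by edgeR, and their part in the Otx2 values was not tested. The fourth, Otop1, was below the filter and at 0 counts in wildtype library 3.

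**Figure D4:**
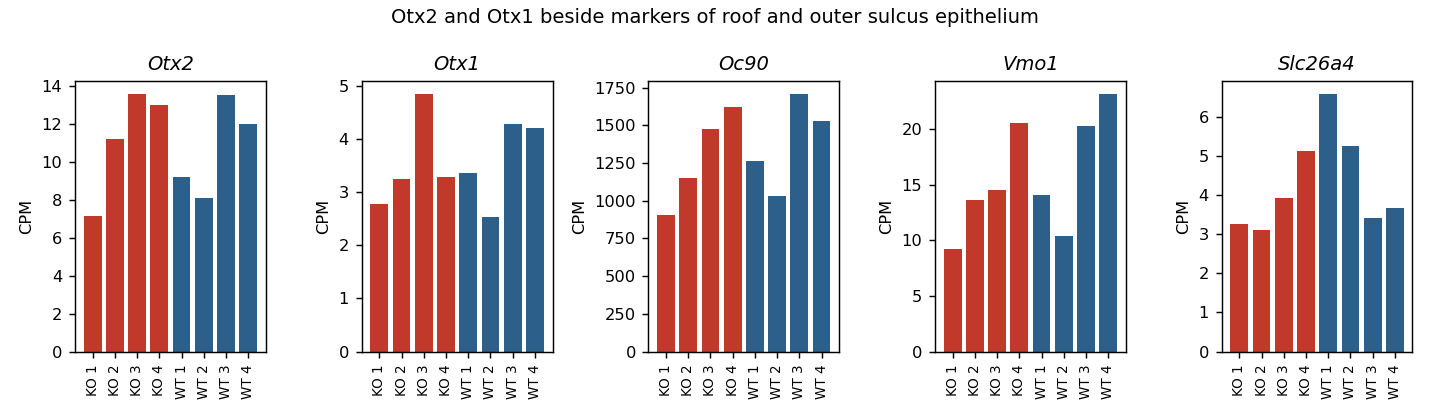
CPM of Otx2 and Otx1 and of the 3 tested roof and outer sulcus markers, Oc90, Vmo1 and Slc26a4, in each library, labelled knockout in red (KO) and wildtype in blue (WT), each panel with its own axis from 0. Libraries 3 and 4 of both groups stand highest for Otx2, Oc90 and Vmo1, while Slc26a4 is highest in wildtype libraries 1 and 2.

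Isl1, a LIM-homeodomain factor of prosensory cells and sensory neurons, was the 1 of 5 LIM-domain and MYC genes with an unadjusted p under 0.05. It had 119, 115, 124 and 118 CPM in the libraries labelled knockout and 97.2, 109, 99.0 and 117 CPM in wildtype. Wildtype libraries 1 and 3 were the lowest, and wildtype library 4 lay within the range of the libraries labelled knockout. The log2 fold change was 0.17 ± 0.06 (SE, adjusted p = 0.618 by edgeR). Without wildtype libraries 1 and 3, its 2 lowest, it was 0.07 ± 0.06, and with the stria and melanocyte score as a covariate 0.01 ± 0.07.

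Lmo4 and Lmo3, LIM-only cofactors that bind LDB proteins, of which Lmo4 is needed for vestibular morphogenesis in the mouse, averaged 97.1 ± 3.37 and 9.54 ± 0.97 CPM in the libraries labelled knockout, against 101 ± 4.87 and 9.62 ± 1.34 CPM in wildtype. Mycn and Mycl, MYC-family factors of which Mycn supports growth of the otic epithelium, averaged 26.0 ± 3.25 and 42.6 ± 3.32 CPM in the libraries labelled knockout, against 26.9 ± 0.52 and 45.6 ± 4.33 CPM in wildtype (SD, n = 4 per group). The log2 fold changes of these 4 genes lay between -0.10 and -0.01.

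The precision of these values followed the level. The 20 members with a mean of at least 20 CPM in either group had log2 fold changes of at most 0.20 in size and 95% intervals reaching at most 0.18 to each side, and their highest library exceeded their lowest by 1.12 to 1.33 times. Over all 30 tested members the highest library exceeded the lowest by 1.27 times in the median, against 1.38 times over all tested genes. Over the tested genes at 1 CPM or more that median was 1.30 times, close to that of the members. The 95% interval lay wholly between -0.5 and 0.5 for 24 members and included 0 for 24.

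Compared per length, using exon lengths of GENCODE M21, Gata3 was the most abundant member, with 74.7 CPM per kilobase in the libraries labelled knockout and 71.9 in wildtype. Its range of 69.5 to 77.6 over the 8 libraries lay above that of Sox9, 53.7 to 67.6. Next came Sox2 at 45.2 to 54.8, Nr2f1 at 44.7 to 54.0, Eya1 at 39.9 to 45.3, Tbx2 at 36.3 to 42.7 and Six2 at 35.4 to 44.0, and each of these overlapped the one before it in this order. Then came, by mean and from high to low, Sall3, Isl1, Lmo4, Gata2, Eya4, Nr2f2, Dach1, Sall1, Tbx1, Mycl, Mycn, Six4, Eya2, Tbx3, Otx2, Pax2, Lmo3 and Hmx3. Neighbours in this order overlapped over the libraries except below Lmo4, Nr2f2, Dach1, Mycl, Six4 and Eya2. At the other end, Meis1, Otx1, Meis2, Hmx2, Dlx5, Gbx2, Msx1, Msx2, Dlx6 and Pax8 stayed below 1 CPM per kilobase in every library.

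Within most families 1 paralog was well above the other per kilobase. Tbx2 exceeded Tbx3 by 16.8 times per kilobase in the libraries labelled knockout and by 13.2 times in wildtype, Eya1 exceeded Eya2 by 6.25 and 6.50 times, Lmo4 exceeded Lmo3 by 14.8 and 15.2 times, and Six2 exceeded Six4 by 4.77 and 4.87 times. Gata3 exceeded Gata2 by 3.51 and 3.19 times, Sall3 exceeded Sall1 by 3.00 and 2.95 times, and Nr2f1 exceeded Nr2f2 by 2.47 and 2.40 times, in the libraries labelled knockout and in wildtype. Hmx3 exceeded Hmx2 by 8.65 and 9.24 times. Of 15 pairs, the log2 ratio of CPM was non-overlapping between the groups for 1, Eya1 over Eya4, at 0.70 ± 0.06 in the libraries labelled knockout and 0.83 ± 0.05 in wildtype (SD, n = 4 per group, no test). Eya4 alone already had groups that did not overlap, so this pair is not a further result. The share over other gene pairs was not counted.

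**Figure D5:**
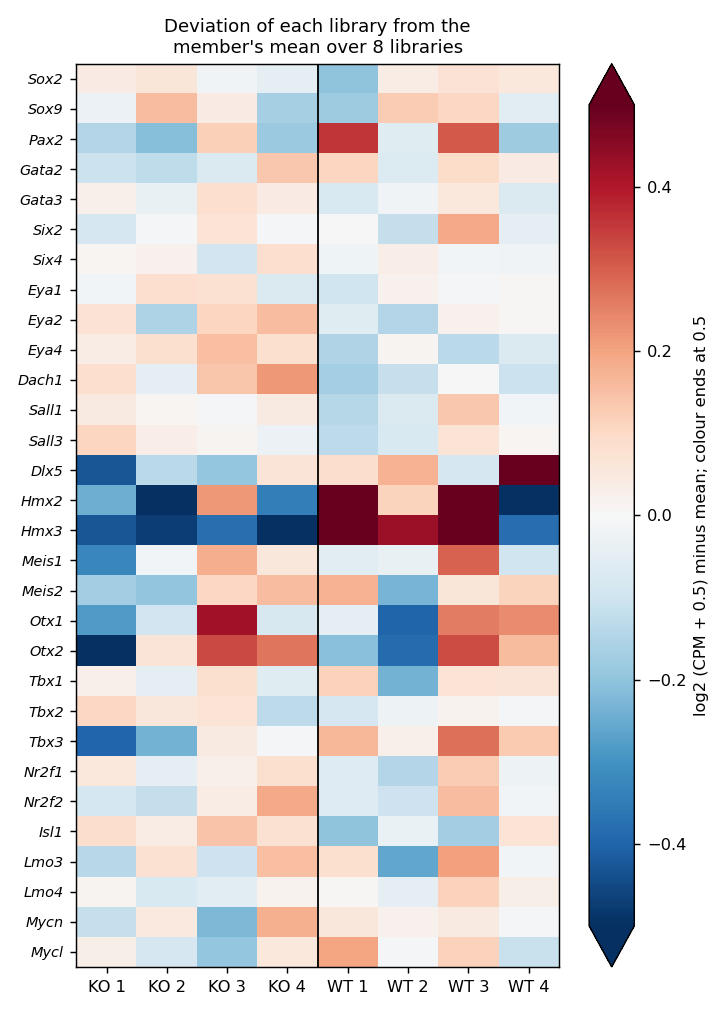
Deviation of each library from a gene's mean over the 8 libraries, in log2 (CPM + 0.5), for the 30 tested genes, with libraries labelled knockout (KO) at the left and wildtype (WT) at the right of the line. Hmx3, Hmx2, Dlx5, Pax2, Otx1, Otx2 and Tbx3 carry the strongest colours, and the column of wildtype library 3 is red for most genes.

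Single libraries shifted many members a little. Wildtype library 3 held the highest value for 8 of the 30 tested members and the lowest for 0, and over all tested genes the highest for 16.2% and the lowest for 22.4%. Wildtype library 1 held the highest for 6 members and the lowest for 9, and over all tested genes the highest for 13.8% and the lowest for 11.9%. The median deviation of the members was 0.10 (log2) in wildtype library 3 and -0.05 in wildtype library 1, against -0.00 and 0.00 over all tested genes. In the libraries labelled knockout it lay between -0.04 and 0.06. With any 1 library left out, edgeR called no member except Hmx3 without wildtype library 4.

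Relatives and partners of the members were looked at in the same fit. Of 37 paralogs outside the member list, 22 were tested and 0 passed by edgeR, limma-voom or DESeq2. By edgeR 2 had an unadjusted p under 0.05, which is 9.09% of those tested against 7.55% of all tested genes. The groups did not overlap for 1, Isl2, which is 4.55% against 3.69%. Isl2, a relative of Isl1, had 34.7, 29.3, 30.3 and 28.2 CPM in the libraries labelled knockout and 26.6, 26.1, 24.6 and 24.8 CPM in wildtype, with no overlap and a log2 fold change of 0.26 ± 0.07 (SE, adjusted p = 0.465 by edgeR). Six6 averaged 0.78 ± 0.31 CPM in the libraries labelled knockout and 0.34 ± 0.25 CPM in wildtype. Nr2f6 had a log2 fold change of -0.11 ± 0.07 (SE) and Gata6 one of -0.27 ± 0.18.

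Of 40 partners and other otic regulators, 35 were tested and 0 passed by edgeR, limma-voom or DESeq2. By edgeR 2 had an unadjusted p under 0.05, both with a log2 fold change below 0, which is 5.71% against 7.55% of all tested genes. Pknox1, a relative of the MEIS genes, averaged 25.2 ± 1.05 CPM in the libraries labelled knockout and 28.3 ± 1.16 CPM in wildtype, and Hoxa2, a hindbrain and branchial arch patterning gene, 3.28 ± 0.52 and 4.27 ± 0.16 CPM (SD, n = 4 per group). The groups did not overlap for Pknox1, Hoxa2 and Chd7, which is 8.57% of the 35 tested, against 3.69% of all tested genes. The next genes by p were Pou3f4 of the periotic mesenchyme at -0.12 ± 0.06, Zic2 at -0.13 ± 0.07 and the chromatin remodeller gene Chd7 at 0.08 ± 0.05 (log2 fold change ± SE). Emx2, the driver locus, averaged 19.7 ± 2.39 CPM in the libraries labelled knockout and 16.2 ± 1.61 CPM in wildtype, with an adjusted p of 0.607 by edgeR.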

How the data were processed

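RNA-seq after ribosomal RNA depletion was measured in 8 libraries of newborn organ of Corti, grouped by labelled genotype. Named in the submitters' processing notes are the build GRCm39, quality control with FastQC 0.12.1, trimming with cutadapt 4.3, HISAT2 2.2.1, featureCounts and DESeq2. For annotation, strand and multi-mapped reads, settings were not given in the sources used here. Raw counts per gene were deposited for each library, per the file headers, beside the authors' group means of counts and DESeq2's mean normalized count, a signal that was not tested. The authors also deposited DESeq2's log2 fold changes with SE, a Wald score and p-values, whose direction was read from their signs.

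Genes were kept with filterByExpr (minimum count 10), which left 20581 of 41079, scaled by TMM and tested with edgeR 4.0.16 (R 4.3.3), quasi-likelihood, genotype as the 1 factor, Benjamini-Hochberg adjustment over all tested genes and a threshold of 0.05. CPM use the TMM factors. Alternatives used other scalings and filters, limma 3.58.1 (voom), DESeq2 1.42.0, libraries left out, a replicate block and a marker score as covariate. The test was tried on simulated data. Members, lists and alternatives were chosen with earlier results of these data known. Values per library are given for members at an unadjusted p under 0.05 and for the most counted and the lowest-p member of each of 5 role groups, plus Hmx2, Otx1 and Otx2, chosen after their values were seen. From each further list up to 5 genes are named by p, of which 1 is not reported here. Exon lengths and overlaps come from GENCODE M21 (GRCm38) and scale levels only. Replicate libraries differed by more than sampling noise (chi-square per degree of freedom at least 10.7). Intervals cover the spread between libraries.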

Additional observations from a re-analysis of the deposited data

Results flagged for a closer look

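Among 84 sets of 4 libraries (the 30 tested members, Prox1, Emx2 and 10 marker sums in each group), 4 held a library far from the other 3, about what chance gives at 1 in 20. All 4 were in wildtype. Sox2 was at 93.1 CPM in wildtype library 1, where the other 3 lay between 110.1 and 113 CPM. Six4 was at 89.0 CPM in wildtype library 2, against 85.6 to 86.0 CPM in the other 3. Meis1 was at 10.4 CPM in wildtype library 3, against 7.83 to 8.19 CPM, and Tbx1 at 32.4 CPM in wildtype library 2, against 40.1 to 41.5 CPM.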

How the results depend on the processing

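No member was called higher in any alternative fit. Lower calls of members numbered 1 with DESeq2, and between 0 and 1 with 1 library left out, where the call is Hmx3 without wildtype library 4. Members at an unadjusted p under 0.05 numbered 3 without wildtype libraries 1 and 3, 1 (Dlx5) with the stria and melanocyte score as covariate, and 4 to 7 with 1 library left out, against 6. The members' median was 0.058 without wildtype libraries 1 and 3. Over all genes, 7 were called higher and 12 lower. Calls numbered 12 higher and 24 lower with no filter, 36 and 49 with DESeq2, 2 and 7 without wildtype libraries 1 and 3, and 0 and 7 with the covariate. At a threshold of 0.01, 2 were higher. With 1 library left out they ran between 2 and 7 higher and between 8 and 20 lower, the most without library 4 labelled knockout. The cause was not tested, apart from fewer samples or more genes where a fit has them by construction.

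Signs changed for genes near 0 and, without wildtype libraries 1 and 3 or with the covariate, for Pax2 and Hmx2 as well. Log2 fold changes turned to 0.015 for Sox9, 0.0014 for Otx1, 0.0076 for Tbx1 and 0.0039 for Lmo3 with upper quartile scaling, to 0.013 for Sox9, 0.0054 for Tbx1 and 0.0027 for Lmo3 with a stricter filter, and to 0.00059 for Sox9, 0.0099 for Otx1, 0.00095 for Tbx1 and 0.0072 for Lmo3 with limma-voom. Without wildtype libraries 1 and 3 they were -0.036 for Sox2, 0.016 for Pax2, 0.076 for Six2, -0.0019 for Six4, 0.058 for Hmx2, 0.056 for Meis1, 0.039 for Meis2, 0.082 for Otx1, 0.081 for Tbx1, 0.14 for Lmo3 and 0.013 for Mycl. With the covariate they were -0.091 for Sox2, 0.11 for Pax2, 0.037 for Six2, -0.025 for Eya1, 1.34 for Hmx2, -0.14 for Otx2, 0.034 for Tbx1, 0.072 for Lmo3, 0.11 for Mycl and 0.0074 for Pou3f4. With 1 library left out they ran -0.045 to 0.043 for Sox2, -0.057 to 0.051 for Sox9, -0.060 to 0.047 for Six2, -0.017 to 0.042 for Six4, -0.13 to 0.053 for Meis1, -0.15 to 0.0017 for Meis2, -0.21 to 0.081 for Otx1, -0.041 to 0.24 for Otx2, -0.085 to 0.029 for Tbx1, -0.053 to 0.069 for Nr2f2, -0.099 to 0.062 for Lmo3 and -0.13 to 0.0097 for Mycn.

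The replicate numbers showed no pairing of the libraries, though this check cannot exclude one. The correlations of same-numbered libraries' deviations were 0.155, 0.275, -0.344 and -0.161, and those of differently numbered libraries ran between -0.499 and 0.456. With the number as a replicate block, 3 genes were called higher and 12 lower, 0 of them members, and Sox9 was at 0.00049. Counts were few for members under 1 CPM, such as Dlx5 with 3 to 22 per library. For Hmx2, with 2 to 54, the libraries also varied beyond counting error (biological coefficient of variation 60.8%).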
